A study of Mus musculus with 13 samples.

Results

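The nuclei described here are those that carry the cluster name CNT, for connecting tubule, in the annotation deposited with a single nucleus ATAC-seq (snATAC-seq) study of the mouse kidney. They number 879 of 28316 nuclei. Their open calls were summed within each sample, so that each sample gave 1 value per peak or gene, and 2 samples of postnatal day 0 (P0) were set against 1 sample of day 21 (P21) and 2 of day 56 (P56). The comparison asks how accessible chromatin in this segment of the nephron differs between the newborn and the grown kidney.

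snATAC-seq cuts open chromatin of single nuclei with a transposase and reads the fragments. Kidneys were taken from P0 mice (the protocol speaks of 1-day-old animals) and from mice of 3 and 8 weeks, and the labels name no treatment or genotype. Following the study's design, the P21 and P56 samples together are called adult. The study's methods name wild type newborn mice and adult C57BL/6 mice for its single cell RNA-seq, while strain and sex of the mice used for snATAC-seq are not given in the sources used here. The labels do not say that the samples of a stage came from separate animals, so the p-values measure the spread between these samples, which may be technical. Each sample was its own library and batch, and no batch holds more than 1 stage, so batch and stage cannot be told apart.

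The connecting tubule joins the distal convoluted tubule (DCT) to the collecting duct. In the grown kidney its cells take up calcium through the apical channel TRPV5, carry it across the cell on calbindins and extrude it through the exchanger encoded by Slc8a1 and through calcium pumps, under the control of parathyroid hormone and vitamin D. They also take up sodium through the epithelial sodium channel ENaC under aldosterone, and they secrete tissue kallikrein, the product of Klk1. Principal cells (PC) of the collecting duct share ENaC and express the aquaporins and the transcription factor Elf5. The DCT is marked by the thiazide-sensitive cotransporter Slc12a3.

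CNT nuclei numbered 135 and 101 in the P0 samples, 83 in the P21 sample and 294 and 266 in the P56 samples. They made up 2.06% ± 0.279 (SD, n = 2) of all nuclei at P0 and 3.58% ± 0.965 (n = 3) in adult, and the groups did not overlap. The exact two-sided permutation test gave p = 0.2, the smallest that 2 against 3 samples allow. Among tubule and collecting duct epithelium alone the direction turned, with 6.26% ± 1.28 at P0 and 4.66% ± 1.28 in adult (p = 0.4, exact permutation test). This epithelium was taken as proximal tubule, loop of Henle, DCT, CNT, PC and intercalated nuclei. Podocytes and nephron progenitors were left out, and the turn holds for this choice of types only. P0 nuclei were deeper, with sample medians of 6263 and 8170 open peaks in a nucleus, against 3936 in the P21 sample and 3241 and 6191 in those of P56 (mean over samples 7217 at P0 and 4456 in adult, exact permutation p = 0.2). The sums held between 367747 open calls (P21) and 1653442 (P56 sample 2). Values below are open calls scaled to 1000000 open calls of CNT nuclei in a sample (counts per sample total, CPM), listed in the order P0 sample 1, P0 sample 2, P21, P56 sample 1, P56 sample 2. Of the 879 nuclei, 25 had a barcode that also occurred in another library.

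The cluster name was checked against 7 defining genes by gene activity, the sum of open calls over peaks in the gene body and 2 kb upstream. They were Trpv5, Calb1 (calbindin-D28k), Slc8a1, S100g (calbindin-D9k), Klk1, Kl (the vitamin D and phosphate regulator Klotho) and Scnn1g (the gamma subunit of ENaC). In adult samples CNT ranked first of the 13 named cell types for each of the 7. The study named its clusters by accessibility at marker genes in these same nuclei, Trpv5 among them. The ranking is therefore no independent check of the name. At P0 CNT ranked first for Scnn1g only. At P0 the DCT cluster was highest for Trpv5, Calb1, Slc8a1, S100g and Klk1, and the proximal tubule for Kl. The summed activity of the 7 genes in CNT nuclei was 360, 369, 1395, 1155 and 1015 CPM. In DCT nuclei it was 540, 437, 472, 402 and 442, and in PC nuclei it was 269, 254, 241, 340 and 341. At P0 the CNT cluster also held the highest activity of 2 principal cell genes, Elf5 and the water channel gene Aqp3. Aqp2 and Fxyd4 were instead highest in PC at P0, with means of 26.0 and 22.1 CPM against 19.8 and 15.0 in CNT. The mean for Elf5 was 135 CPM in CNT and 114 in PC at P0, against 38.3 and 163 in adult. The P0 nuclei therefore carry the deposited name CNT without the marker ranking of the adult nuclei, and every difference below is one between nuclei labelled CNT at the 2 ages. A difference in the makeup of the cluster and a change within 1 cell type cannot be told apart in these sums.

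**Figure D1:**
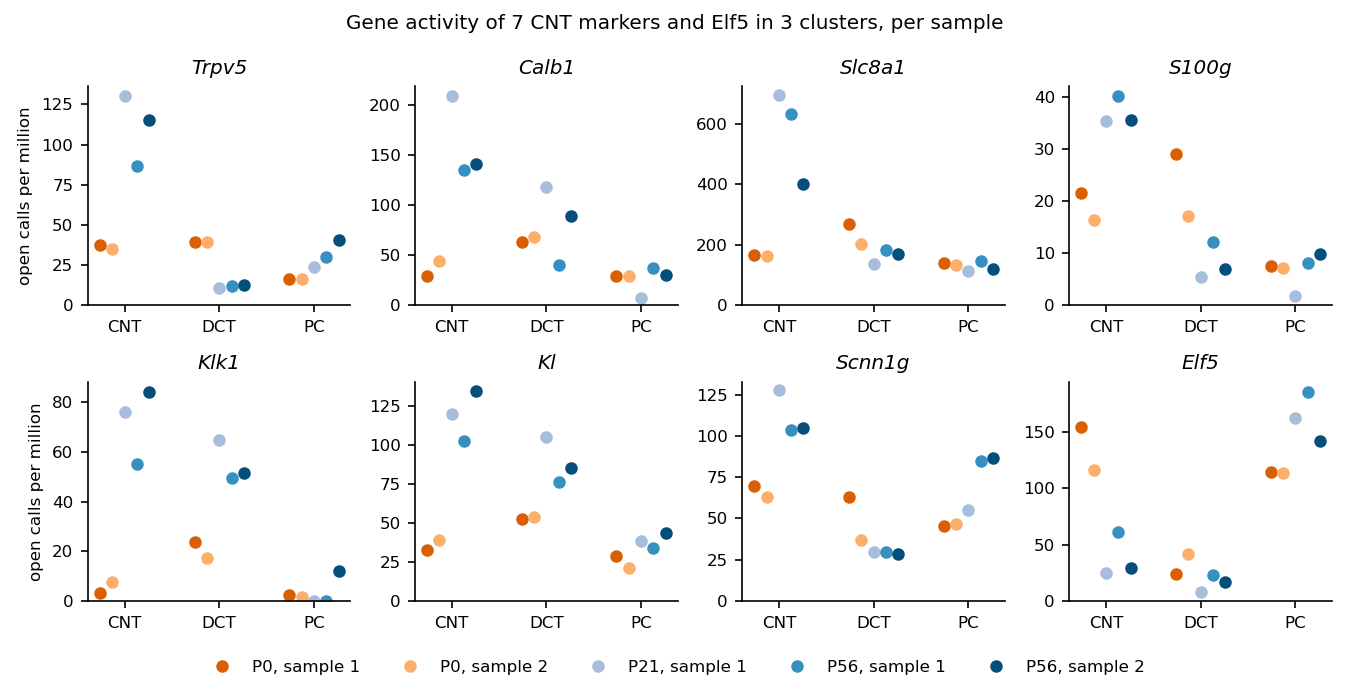
Gene activity (y axis, CPM, open calls scaled to 1000000 open calls of the cluster and sample) of the 7 defining connecting tubule genes and of Elf5 in nuclei labelled CNT, DCT and PC (x axis); each point is 1 of the 5 samples, and each panel has its own y axis starting at 0. For Trpv5 the 3 adult CNT samples lie at 86.5 to 131 and the P0 samples at 35.3 and 37.6, while in DCT the P0 samples lie above the adult samples.

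Of 24739 peaks that passed the filter on low counts, 3011 (12.2%) were called higher at P0 and 2571 (10.4%) higher in adult by edgeR's quasi-likelihood test at a Benjamini-Hochberg adjusted p of 0.05. The peaks higher in adult lay away from gene starts, in 71.3% at distal or intronic positions, against 43.3% of those higher at P0 and 35.7% of those not called. An annotated transcription start lay within 12.8% of the peaks higher in adult, 43.2% of those higher at P0 and 55.0% of those not called. The counts moved with single samples. Without P0 sample 1 they fell to 478 and 1064, without P0 sample 2 to 1275 and 1622, and without P56 sample 1, the shallowest per nucleus, they were 4196 and 3667. With every nucleus thinned to 1000 open peaks 1570 peaks were left to test, of which 0 were called higher at P0 and 6 higher in adult.

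The same peaks were not silent in other cell types. Peaks higher at P0 in CNT had a median of 19.7 CPM in CNT nuclei at P0 and 5.97 in adult. In PC nuclei their median was 19.3 at P0 and 10.3 in adult, in loop of Henle (LOH) 17.8 and 6.37, in nephron progenitors (NP) 17.4 and 10.8, and in DCT 12.7 and 5.39. Peaks higher in adult had medians of 6.58 at P0 and 28.8 in adult in CNT, 14.0 and 27.7 in DCT, 6.36 and 20.4 in LOH, and 5.24 and 12.4 in PC. In each of these types the P0 samples lay on 1 side of the adult samples. No test was made of these medians, since the peaks were chosen in CNT nuclei of the same samples.

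**Figure D2:**
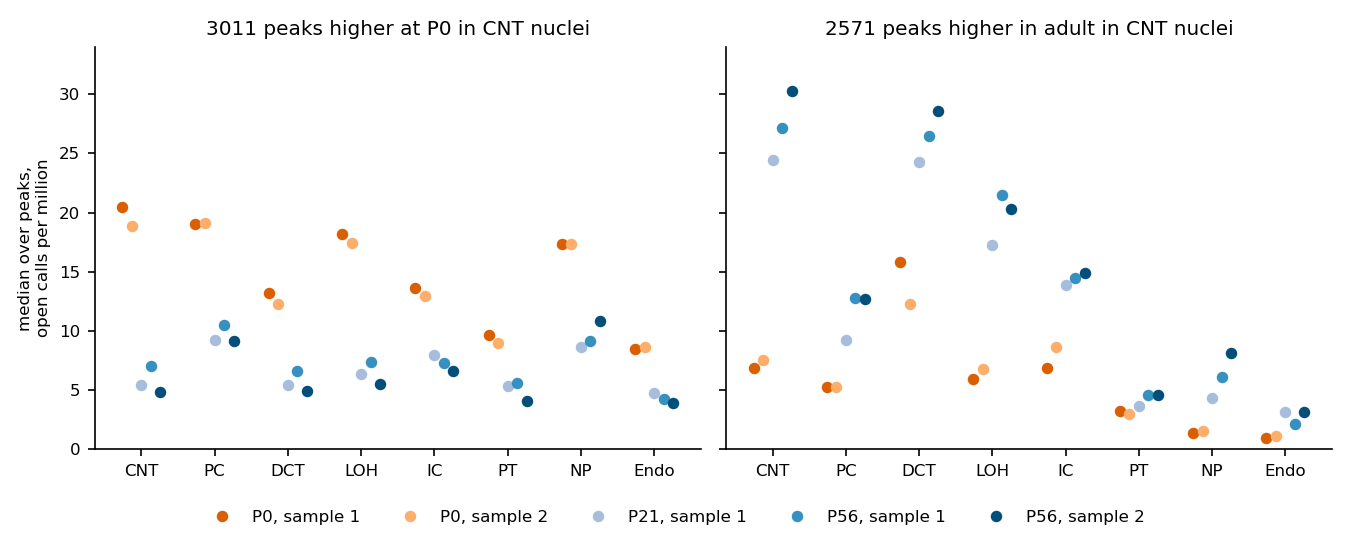
Median CPM (y axis, open calls scaled by the total of the cluster and sample) over the 3011 peaks called higher at P0 (left) and the 2571 called higher in adult (right) in CNT nuclei, shown for 8 cell types (x axis); each point is 1 of the 5 samples. For the peaks higher in adult the adult CNT samples lie between 24.5 and 30.2 and the adult DCT samples between 24.3 and 28.6.

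The peaks with the largest differences had no open call in any nucleus of 1 stage, and 4 of them away from gene starts are printed here as examples, 2 from each direction, of the distal and intronic peaks among the 10 with the largest fold. They are central stretches of 300 bases on the plus strand of mm10. An intron of Cbfa2t3, which encodes a transcriptional corepressor, holds the first (chr8:122636077-122636376), and an uncharacterised gene, Gm20388, overlaps it. The second lies 123838 bp from the start of Nsun3 (chr16:62643135-62643434), the third in an intron of Pdilt next to Umod on chromosome 7 (chr7:119490374-119490673) and the fourth 12181 bp from the start of Egf (chr3:129767347-129767646). Capitals mark exact matches, on either strand, to short motifs that were searched in all peaks. GATA factors were searched as AGATAA. For TEAD factors the letters searched were GGAATG. The forkhead (FOX) factors were represented by the letters TGTTTAC. For the AP-1 dimer the letters were TGANTCA.
Cbfa2t3, higher at P0: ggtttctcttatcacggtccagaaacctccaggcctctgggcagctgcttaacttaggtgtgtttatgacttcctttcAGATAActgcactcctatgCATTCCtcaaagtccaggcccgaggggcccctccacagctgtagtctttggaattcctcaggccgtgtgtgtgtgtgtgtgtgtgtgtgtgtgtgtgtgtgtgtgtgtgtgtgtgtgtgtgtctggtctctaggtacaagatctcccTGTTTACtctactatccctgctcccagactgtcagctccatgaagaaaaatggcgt
Nsun3, higher at P0: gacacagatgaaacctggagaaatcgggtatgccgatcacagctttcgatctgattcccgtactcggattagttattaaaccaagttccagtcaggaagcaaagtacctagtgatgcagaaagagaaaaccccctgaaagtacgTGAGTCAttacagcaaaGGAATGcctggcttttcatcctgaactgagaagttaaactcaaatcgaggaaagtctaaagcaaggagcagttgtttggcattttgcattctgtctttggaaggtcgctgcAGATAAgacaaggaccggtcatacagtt
Pdilt, higher in adult: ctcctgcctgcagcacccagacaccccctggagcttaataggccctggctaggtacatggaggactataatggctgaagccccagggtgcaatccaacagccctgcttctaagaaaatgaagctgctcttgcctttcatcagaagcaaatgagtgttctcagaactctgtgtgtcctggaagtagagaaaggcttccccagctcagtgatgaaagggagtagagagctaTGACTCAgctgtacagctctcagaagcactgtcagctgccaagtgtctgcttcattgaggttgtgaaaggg
Egf, higher in adult: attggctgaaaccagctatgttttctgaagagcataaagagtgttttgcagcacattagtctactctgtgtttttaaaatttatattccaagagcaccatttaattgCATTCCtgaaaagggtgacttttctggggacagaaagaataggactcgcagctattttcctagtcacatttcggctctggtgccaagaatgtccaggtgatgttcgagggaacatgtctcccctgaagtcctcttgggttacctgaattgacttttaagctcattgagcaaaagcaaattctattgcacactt
Of all 300693 peaks with sequence, 15.3% held the GATA letters, 18.8% the TEAD letters, 5.09% the FOX letters and 10.5% the AP-1 letters in a stretch of this length, so such matches are common.

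The Cbfa2t3 peak (chr8:122635939-122636516) was open in 24 of 135 and 21 of 101 P0 nuclei and in 0 of 643 adult nuclei, which allows a share of up to 0.467%. Against a floor of 3 open calls over the adult group it was at least 27.1-fold higher at P0 in CPM. It was open in 23.8% of PC nuclei at P0 and 6.54% in adult, but in 2.78% and 0.119% of DCT nuclei. The Nsun3 peak (chr16:62642946-62643625) was open in 19 and 13 P0 nuclei and in none of the 643 adult nuclei (at least 19.2-fold higher at P0), with 16.3% of PC nuclei at P0. The other 8 peaks of the 10 with the largest fold at P0 were likewise at 0 in adult CNT nuclei. They lay in or near Prmt8, Cntn2, Slc14a2 (a urea transporter gene), Ptprs, Slc12a2 (a sodium, potassium and chloride cotransporter gene), Tgfbr3, Bin3 and Lamc1 (a laminin chain), and were at least 16.2-fold to 24.6-fold higher at P0.

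The Pdilt peak (chr7:119490050-119490999) was open in 0 of 236 P0 nuclei and in 8 of 83, 35 of 294 and 64 of 266 adult nuclei, and was at least 19.8-fold higher in adult. Adult DCT and LOH nuclei had it open in 11.8% and 12.9%. The Egf peak (chr3:129767034-129767961) was open in 10 of 83, 17 of 294 and 63 of 266 adult nuclei and in none of the 236 P0 nuclei, at least 16.6-fold higher in adult. Its share was higher still in adult LOH nuclei (46.9%) and DCT nuclei (36.7%). An intronic peak of Atp6v0a4, a proton pump subunit gene, was at least 17.6-fold higher in adult, and a peak at an exon of Slc12a3 at least 9.06-fold. The remaining 6 lay in or near Syn3, Samd7, Gm44127, Tdrd3, Slc38a10 and Dnajc13, 9.98-fold to 14.6-fold higher at least. All 20 were at 0 in 1 stage and passed the filter on low counts only through the other, so their direction was fixed by how they were chosen. After thinning none of the 20 was left to test. Intervals and floors here cover counting error only.

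In gene activity, 2861 of 18065 genes tested (15.8%) were called higher at P0 and 1853 (10.3%) higher in adult, with a median log2 fold change of adult over P0 of 0.04 over all genes tested. Positive values mean higher in adult throughout. These counts also moved with single samples, from 1023 and 498 without P0 sample 1 to 4081 and 3394 without P56 sample 1, and were 1310 and 585 with DESeq2. Gene lists were read against the 15.8% and 10.3%, and for most lists the number of calls kept in all 5 fits with 1 sample left out is given. A gene that passed the filter on low counts only through the stage where it is high had to differ, so the counts are a description. Several genes stand in more than 1 list, such as Calb1 in the marker, calcium and DCT transport lists. Counts of such lists restate each other in part. The lists of water channels, DCT transport, distal transcription factors, early nephron, Notch and fetal growth genes had 9, 15, 30, 25, 17 and 16 members, of which 8, 14, 28, 20, 16 and 11 were tested.

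**Figure D3:**
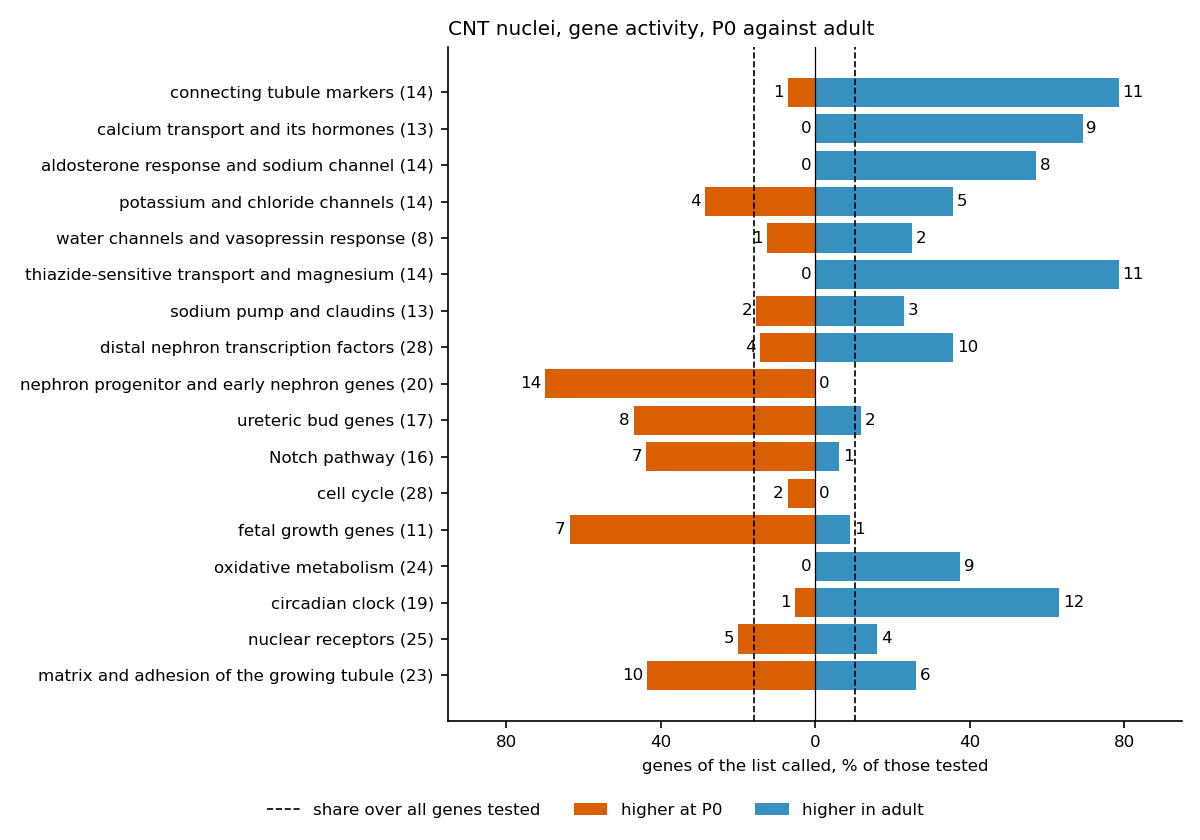
Share of tested genes of each list (x axis, %; number tested in brackets on the y axis) called higher at P0 (left, orange) or higher in adult (right, blue) in gene activity of CNT nuclei, with the number called at the end of each bar. Dashed lines mark the shares over all genes tested, 15.8% and 10.3%; nephron progenitor genes reach 70.0% at P0 and connecting tubule markers 78.6% in adult.

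Most connecting tubule markers were higher in adult. Of 14 connecting tubule markers tested, 11 were called higher in adult and 1 higher at P0 (median log2 fold change 0.85), and 7 of the 11 kept the call with any sample left out. Klk1, tissue kallikrein, had 3.42, 7.56, 76.1, 55.3 and 84.1 CPM, from 3, 6, 28, 55 and 139 open calls (log2 fold change 3.67 ± 0.38 SE). It passed the filter on low counts only through the adult samples, so its direction was fixed and no test is given. Its paralogs Klk1b11 and Klk1b22, next to it on chromosome 7, differed the same way (3.67 and 3.32), and fragments of such near-identical copies may be assigned to the wrong one. Calb1 had 29.6 and 44.1 at P0 and 209, 136 and 141 in adult (2.03 ± 0.23, edgeR adjusted p = 8.9e-06). Slc8a1 had 165 and 164 at P0 and 696, 631 and 400 in adult (1.74 ± 0.20, adjusted p = 9.8e-06). For Calb1 and Slc8a1 the 3 adult samples lay above both P0 samples, and the call held in all alternatives tried.

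Trpv5 had 37.6, 35.3, 131, 86.5 and 116 CPM (1.53 ± 0.22, adjusted p = 6.3e-05). Vdr, the vitamin D receptor, had 93.4, 101, 234, 215 and 256 (1.24 ± 0.16), and Kl had 33.0, 39.0, 120, 103 and 135 (1.70 ± 0.21). S100g, with a log2 fold change of 0.92 ± 0.30, Scnn1g (0.68 ± 0.18), Tfap2b (0.67 ± 0.19), an AP-2 transcription factor, and Pth1r (0.61 ± 0.16), the parathyroid hormone receptor, were called higher in adult, but each lost the call without P0 sample 1. Slc2a9, a urate transporter, was at 0.78 ± 0.17. With nuclei thinned to 1000 open peaks, Trpv5, Vdr, Kl and Slc2a9 lost the call, which they kept in every other alternative. The calcium pumps Atp2b1 (0.15 ± 0.20) and Atp2b4 (0.31 ± 0.18) were not called, and the intestinal-type channel gene Trpv6 had -0.39 ± 0.40. Of the 13 genes of calcium transport and its hormones, 9 were higher in adult and 0 higher at P0, and 6 of the 9 kept the call with any sample left out. They include Casr, the calcium-sensing receptor (0.81 ± 0.18), which lost its call without P0 sample 2. Gene activity sums the peaks of a gene, so counts of single peaks restate it and are no further support. Of the tested peaks, 3 of 3 of Trpv5 (chromosome 6, 41652173 to 41680769), 4 of 6 of Calb1 and 4 of 13 of Slc8a1 were higher in adult. None of their peaks was higher at P0, and 10.4% of all peaks tested were higher in adult. For Slc2a9, 1 of 6 was higher in adult. For S100g, Scnn1g, Atp2b1 and Atp2b4 none of the 1, 2, 1 and 2 peaks tested was called.

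The 1 marker higher at P0 was Kcnma1, the alpha subunit of the large-conductance potassium channel BK, with 205 and 173 at P0 and 87.0, 110 and 59.9 in adult (-1.22 ± 0.21, adjusted p = 0.00029). Its beta subunits Kcnmb2 (-2.06 ± 0.31) and Kcnmb4 (-1.75 ± 0.45) were also higher at P0, although Kcnmb4 lost the call with DESeq2 and without P0 sample 1. A peak over an annotated start of Kcnma1 was open in 18 of 135 and 17 of 101 P0 nuclei and in 2 of 83, 1 of 294 and 3 of 266 adult nuclei (-3.56 ± 0.60). That peak passed the filter on low counts only through the P0 samples, so its direction was fixed. An overlapping transcript, 4930519K11Rik, cannot be told apart from Kcnma1 there, since open calls carry no strand.

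Genes of aldosterone signalling were higher in adult in 8 of 14, with 0 higher at P0 (median 0.69), and 5 of the 8 kept the call with any sample left out. Nr3c2, the mineralocorticoid receptor, had 174 and 189 CPM at P0 and 354, 385 and 376 in adult (1.00 ± 0.14, adjusted p = 5.6e-05). Usp2, a ubiquitin hydrolase induced by aldosterone, had 162, 194, 427, 293 and 468 (1.11 ± 0.17). Per1, a clock gene and aldosterone target (1.05 ± 0.19), Scnn1a, the alpha subunit of ENaC (0.97 ± 0.18), Fkbp5, an immunophilin of the steroid receptor complex (0.87 ± 0.16), and Zbtb16 (0.81 ± 0.15) followed. Scnn1a lost its call without P0 sample 1. Tsc22d3, which encodes the leucine zipper protein GILZ, was at 0.70 ± 0.24 and lost its call without either P0 sample, the P21 sample or P56 sample 1. Scnn1b (0.25 ± 0.17), Sgk1 (0.41 ± 0.18), Nedd4l (0.23 ± 0.15) and Hsd11b2 (0.50 ± 0.24), the enzyme that keeps glucocorticoids from the mineralocorticoid receptor, were not called.

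Peaks over annotated starts were examined for 59 genes of the marker, calcium, aldosterone and transcription factor lists, and 70 such peaks of 50 genes were tested. Of these, 14 were higher in adult and 4 higher at P0, against 2.71% and 10.7% of all 12175 start peaks tested. The Klk1 start peak (chr7:44225107-44225795) was open in 3 of 135, 5 of 101, 22 of 83, 41 of 294 and 115 of 266 nuclei (3.28 ± 0.40). It passed the filter on low counts only through the adult samples, so its direction was fixed and no test is given. The third of 3 tested Usp2 start peaks (chr9:44085721-44087395) had 11.4, 16.4, 76.1, 40.2 and 78.0 CPM (1.93 ± 0.33). The call of this Usp2 peak held in all alternatives that tested it. The 2 start peaks of Scnn1a (1.25 ± 0.27 and 1.08 ± 0.26), that of Kl (0.98 ± 0.24) and 1 of Esrrb, an estrogen-related receptor (3.24 ± 0.87), were higher in adult but not without P0 sample 1. Fkbp5 (1.14 ± 0.32), Esrrg (1.14 ± 0.35), the second of Usp2 (1.10 ± 0.38), Tfap2a (0.97 ± 0.35), Sall3 (0.93 ± 0.32), Vdr (0.86 ± 0.21), Per1 (0.66 ± 0.20) and Nr3c2 (0.64 ± 0.21) completed the 14, each losing its call without at least 1 P0 sample, and after thinning the Vdr and Nr3c2 peaks turned to -0.28 and -0.11. Several of these genes had other start peaks that were not called, with 1.21 ± 0.45 at Esrrb, -0.43 ± 0.45 at Esrrg, 0.77 and 0.18 at Per1, 0.07 and 0.08 at Tfap2a, 0.23 at Vdr, 0.21 at Fkbp5, 0.75 at Nr3c2 and 0.06 at Usp2. At P0 the higher start peaks were those of Kcnma1, 1 of 4 of Nedd4l (-1.84 ± 0.46, the others between 0.08 and 0.64 and not called), Irx3 (-1.77 ± 0.58) and Elf5 (-1.70 ± 0.59), the last 3 of which lost the call without either P0 sample. The Sall3 and Irx3 peaks also cover Gm27239 and Irx3os, which cannot be told apart from them. The start peaks of Calb1 (0.48 ± 0.31), Slc8a1 (0.26 ± 0.27) and S100g (0.68 ± 0.30) were not called, and no start peak of Trpv5 was tested.

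**Figure D4:**
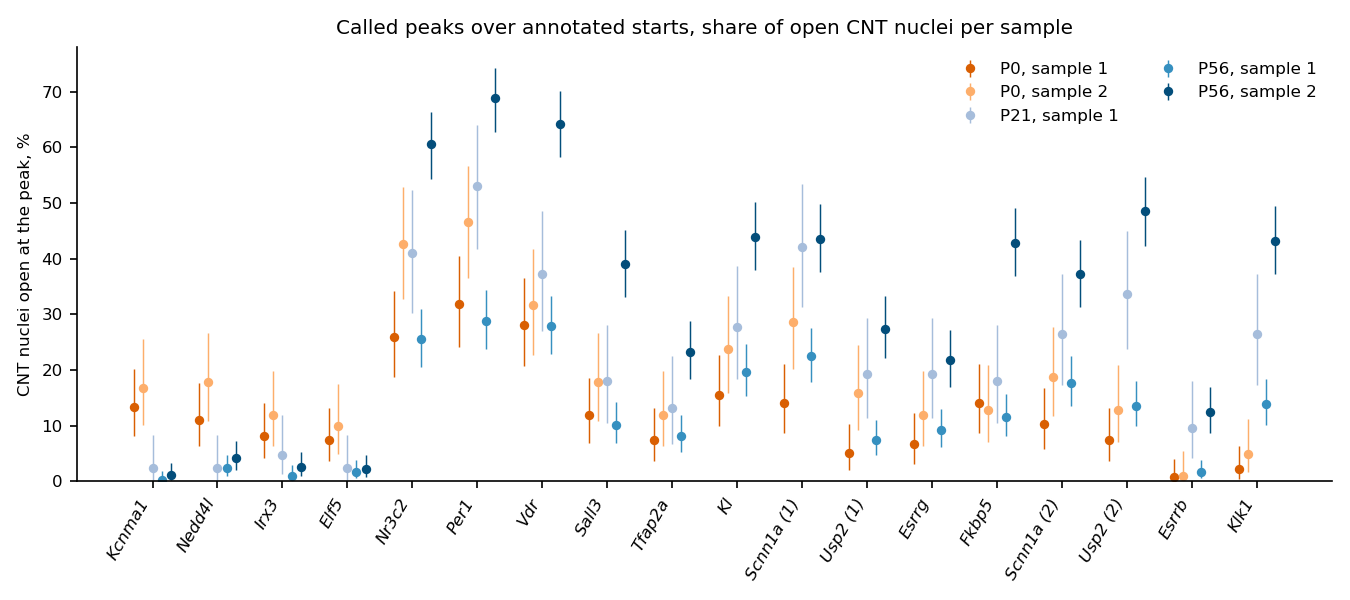
Share of CNT nuclei open at each called peak over an annotated start (y axis, %; genes on the x axis, with 2 peaks each for Scnn1a and Usp2), with exact 95% binomial intervals that cover counting error only; each point is 1 of the 5 samples. Shares are not scaled for depth, and P56 sample 1, with a median of 3241 open peaks per nucleus, lies below P56 sample 2 at most of them, so stage differences were tested on values scaled by library.

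Short matches in 5 of these start peaks are printed as examples of how the motifs counted below look at genes of the aldosterone, estrogen-related receptor and kallikrein pathways. Capitals mark the match in mm10, plus strand. The first 3 match the palindromic response element shared by glucocorticoid and mineralocorticoid receptors, 110 bp, 659 bp and 642 bp upstream of the nearest annotated start of Scnn1a (chr6:125320535-125320563), Fkbp5 (chr17:28518172-28518200) and Usp2 (chr9:44086534-44086562). The fourth matches TCAAGGTCA, the estrogen-related receptor (ERR) half-site, in an exon 114 bp downstream of a start of Esrrb (chr12:86504511-86504535). The last matches GCCNNNGGC, the AP-2 motif, 132 bp downstream of the start of Klk1 and outside its exons (chr7:44225563-44225587).
Scnn1a: gtcaaaaaGAACAGAATGTCCtaggacct
Fkbp5: tggggctgGAACACAATGTCCcgggcgag
Usp2: cactcctgGGACATTTTGTTCtcctctgg
Esrrb: tccaaagtTCAAGGTCAgttttgga
Klk1: ctcctgctGCCTTTGGCcctagaca
A match is a description of the letters and says nothing of binding.

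Over the central 300 bp of all peaks, 21 motifs were counted on both strands. The steroid receptor element stood in 2.02% of the peaks higher in adult, 0.465% of those higher at P0 and 0.548% of those not called. The ERR letters stood in 2.68%, 0.432% and 0.715%, and the FOX letters (TGTTTAC) in 5.72%, 3.22% and 3.07%. Over all 300693 peaks the 3 motifs stood in 0.703%, 0.853% and 5.09%. The GC box (GGGCGGGG), common at gene starts, stood in 3.77% of the peaks higher in adult and 17.6% of those not called, and the AP-2 letters in 14.5% and 23.2%. Over all 300693 peaks the GC box stood in 3.01% and the AP-2 letters in 8.99%, below the shares of the peaks higher in adult. Among peaks higher at P0 the LEF/TCF letters (ATCAAAG), read by effectors of Wnt signalling, stood in 4.38% against 2.51% of those not called, and the PAX letters (GTCACGC) in 1.76% against 2.67%. The PAX letters stood in 1.17% of peaks higher in adult and 0.893% of all peaks. The LEF/TCF share was 3.23% in peaks higher in adult and 5.19% over all 300693 peaks, above that of the peaks higher at P0. Median GC content was 50.3% in peaks higher in adult, 57.3% in those higher at P0 and 57.7% in those not called, and its part in these shares was not tested. With peaks over a start left out, the steroid receptor element stood in 1.96% of peaks higher in adult against 0.744% of those not called. The ERR letters stood in 2.81% against 1.10%, the FOX letters in 5.76% against 4.36% and the GC box in 2.68% against 5.93%. The LEF/TCF letters stood in 6.09% of peaks higher at P0 against 3.54%. The AP-2 (13.3% and 13.6%) and PAX shares (1.52% and 1.48%) came together. These 7 motifs are those whose share, with start peaks included, differed by over 1.5 times with at least 50 matching peaks.

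Transport genes of the neighbouring DCT were higher in adult CNT nuclei in 11 of 14, with 0 higher at P0 (median 0.88), and 8 of the 11 kept the call with any sample left out. Slc12a3 had 39.9, 52.9, 307, 228 and 375 CPM (2.68 ± 0.22, adjusted p = 7.1e-07). In DCT nuclei themselves it had 340 and 376 at P0 and 850, 792 and 634 in adult. Fxyd2, a sodium pump subunit (46.7, 66.7, 294, 240 and 357, 2.37 ± 0.20), and Trpm6, the magnesium channel (64.9, 52.9, 204, 160 and 184, 1.57 ± 0.18), differed likewise. Klhl3, an adaptor of the ubiquitin ligase that degrades the WNK kinases, was at 0.98 ± 0.15, the kinase gene Wnk1 at 0.92 ± 0.17, and Cnnm2 at 0.84 ± 0.14. Umod, uromodulin of the thick ascending limb, was at 2.98 ± 0.48 from low levels (2.28, 5.04, 21.8, 29.2 and 33.9). It passed the filter on low counts only through the adult samples, so its direction was fixed. Egf, by contrast, had 0.16 ± 0.19 over the gene although the distant peak above was among the largest differences. Klhl3 turned to -0.15 when only the window around gene starts was counted. The summed activity of the 6 DCT marker genes in CNT nuclei was 397 and 413 at P0 and 1112, 872 and 1156 in adult. Slc12a3, Trpm6, Wnk1 and Egf are in both this set and the transport list, so the sum in part restates the list. The part of DCT signal in these differences was not tested.

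Among potassium and chloride channels, 5 of 14 were higher in adult and 4 higher at P0, with 3 and 2 kept with any sample left out. Kcnj1, the secretory potassium channel ROMK, had 49.0, 49.1, 160, 162 and 178 (1.74 ± 0.18, adjusted p = 3.4e-06), and Bsnd, the chloride channel subunit barttin, 52.4, 47.9, 141, 133 and 149 (1.46 ± 0.18). Kcnj16 was at 0.97 ± 0.19. Thus Kcnj1 and the BK subunit genes Kcnma1 and Kcnmb2, all of potassium secretory channels, differed in opposite directions. Of 13 sodium pump and claudin genes, 3 were higher in adult, among them Fxyd2 and Atp1b1 (0.84 ± 0.17), and 2 higher at P0, the tight junction genes Cldn19 (-1.95 ± 0.31) and Cldn6 (-1.14 ± 0.33), the last of which lost its call without any 1 of P0 sample 1, P0 sample 2 or P56 sample 2. Of 8 water channel and vasopressin genes, Aqp3 was higher at P0 (-0.92 ± 0.29) and Aqp2 (0.92 ± 0.29) and Adcy6 (0.57 ± 0.17) higher in adult, and none of the 3 kept the call with every sample left out in turn.

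Distal nephron transcription factors were higher in adult in 10 of 28 and higher at P0 in 4. Elf5 had 154 and 116 at P0 and 24.5, 61.3 and 29.0 in adult (-1.80 ± 0.26, adjusted p = 7.1e-05) and was the 1 of the 4 that kept the call with any sample left out. The others were Irx3 (-1.55 ± 0.55), Zfhx3 (-0.63 ± 0.15) and Pax2 (-0.49 ± 0.16), which turned to 0.08 in the window around starts. In adult, Sall3 (45.6, 54.2, 111, 118 and 155, 1.37 ± 0.20), Esrrb (55.8, 57.9, 111, 103 and 172, 1.20 ± 0.22), Tfcp2l1 (0.81 ± 0.14) and Grhl2 (0.69 ± 0.16), the last 2 being grainyhead family factors of distal epithelia, kept the call with any sample left out. Emx1 (0.76), Tfap2b (0.67), Tfap2a (0.49), Mecom (0.43) and Esrrg (0.42) were higher in adult but each lost the call without P0 sample 1. Gata3 (0.02 ± 0.18), Gata2 (0.41 ± 0.20), Pax8 (-0.24 ± 0.16) and Lhx1 (0.48 ± 0.27) were not called.

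Genes of nephron progenitors and early nephrons were higher at P0 in 14 of 20 tested, with 0 higher in adult (median -1.26), and 7 of the 14 kept the call with any sample left out. Sox11 had 38.7, 37.8, 8.16, 4.02 and 4.84 CPM (-2.94 ± 0.39). It passed the filter on low counts only through the P0 samples, so its direction was fixed and no test is given. Lef1, a Wnt effector, had 47.8, 63.0, 35.4, 15.1 and 18.1 (-1.51 ± 0.30), and Heyl, a Notch target, 53.5, 61.7, 16.3, 25.1 and 19.4 (-1.49 ± 0.27). Wt1 (-2.32 ± 0.54), Bmp2 (-2.65 ± 0.44), Meox2 (-3.39 ± 0.64) and Cdh6 (-1.13 ± 0.25) also kept the call. Six2, the defining progenitor factor, had too few calls to be tested (7.97, 16.4, 5.44, 3.02 and 4.23). Summed over 7 progenitor markers the activity was 154 and 170 in CNT at P0 and 68.3 to 90.5 in adult, against 371 and 362 in NP nuclei at P0, and the part of this in the list was not tested.

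Of 17 ureteric bud genes 8 were higher at P0 and 2 higher in adult, with 3 of the 8 kept with any sample left out. Gfra1, the GDNF coreceptor, had 170 and 173 at P0 and 51.7, 44.2 and 42.9 in adult (-1.97 ± 0.17, adjusted p = 7.1e-07). Its partner Ret (-1.18 ± 0.38) and the ligand Gdnf (-1.70 ± 0.42) lost the call without at least 1 sample. Wnt7b, a Wnt ligand of the collecting duct, was at -1.28 ± 0.28 and Krt19 at -2.91 ± 0.52. Of 16 Notch pathway genes 7 were higher at P0. With any sample left out the call held for 3 of them, Heyl, the receptor Notch3 (85.4, 102, 57.1, 37.2 and 32.7, -1.31 ± 0.23) and Lfng (-2.28 ± 0.48), which modifies Notch receptors, and Lfng lost it with DESeq2. The ligand Jag1 (-0.80 ± 0.19) lost the call without P0 sample 1. Nrarp alone was higher in adult (0.64 ± 0.23), and not under 10 of the alternatives. Of 11 fetal growth genes 7 were higher at P0, 4 of them with any sample left out, and 1 higher in adult. Igf2bp1, an RNA-binding protein of fetal tissue, had 79.7, 85.6, 13.6, 18.1 and 12.7 (-2.52 ± 0.26, adjusted p = 3.4e-06), Igf2bp3 88.8, 89.4, 40.8, 33.2 and 26.0 (-1.55 ± 0.23) and Hmga2 245, 205, 109, 138 and 97.4 (-1.01 ± 0.17). Cell cycle genes did not exceed the background share at P0, where 2 of 28 were higher at P0, Ccnd2 (-1.87 ± 0.34) and Cdkn1a (-0.81 ± 0.25), the last of which lost its call without either P0 sample, the P21 sample or P56 sample 2, and Mki67 (0.40 ± 0.33) and Top2a (0.48 ± 0.29) were not called.

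Clock genes were higher in adult in 12 of 19 and higher at P0 in 1 (median 0.60), 5 of the 12 kept with any sample left out. Nr1d1, the repressor REV-ERB alpha, had 76.3, 95.7, 245, 186 and 293 (1.46 ± 0.19, adjusted p = 2.7e-05). Per1, Per2 (0.82 ± 0.17), Dbp (0.80 ± 0.17) and Hlf (0.75 ± 0.17) also kept the call, and Npas2, a partner of BMAL1, was higher at P0 (-1.28 ± 0.22). The times of day at which the kidneys were taken are not given in the sources used here, so time of day and stage cannot be told apart. Genes of oxidative metabolism were higher in adult in 9 of 24 and higher at P0 in 0. The coactivator Ppargc1a had 87.7, 91.9, 177, 220 and 183 (1.08 ± 0.17), Pdk4 53.5, 40.3, 89.7, 107 and 102 (1.06 ± 0.21) and Cpt1a, the gate of mitochondrial fatty acid import, 138, 142, 310, 280 and 278 (1.00 ± 0.15), and these 3 were the ones kept with any sample left out. Nuclear receptors were not far from the background shares, with 5 of 25 (20%) higher at P0 and 4 (16%) higher in adult, of which 1 and 3 kept the call with any sample left out. Nr2f1 was highest in difference at P0 (43.3, 39.0, 13.6, 11.1 and 8.47, -2.05 ± 0.33). It would not have passed the filter on low counts through its adult samples alone. The thyroid hormone receptor gene Thrb (101, 88.2, 169, 189 and 168, 0.85 ± 0.17) stood beside Vdr and Nr3c2 in adult.

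Matrix and adhesion genes split as well, 10 of 23 higher at P0 and 6 higher in adult, with 2 in each direction kept with any sample left out. Cdh2, N-cadherin, had 66.1, 51.6, 35.4, 17.1 and 15.7 (-1.65 ± 0.30) and Lamc1 169, 161, 87.0, 97.5 and 95.6 (-0.84 ± 0.16). In adult, Itgb6 (133, 118, 209, 248 and 214, 0.80 ± 0.16) and the collagen IV chain gene Col4a3 (91.1, 65.5, 136, 173 and 168, 1.01 ± 0.19) were the 2. E-cadherin, Cdh1, was at 0.62 ± 0.15 and lost its call without at least 1 sample.

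Markers of other cell types moved with the comparison. Of 8 endothelial markers 6 passed the filter on low counts and were called higher at P0, and each lost the call without at least 1 sample. The 8 summed to 237 and 232 CPM in CNT nuclei at P0 and 109, 111 and 91.3 in adult, and in endothelial nuclei to between 1528 and 2454. Emcn was at 0 in at least 1 sample and no endothelial marker was at 0 in all. PC nuclei had 273 and 280 at P0 and 150 to 211 in adult. Proximal tubule markers were higher at P0 in 3 of 7 tested, 2 of them with any sample left out, with Cubn at -1.42 ± 0.26 and Slc22a8 at -2.03 ± 0.43, but the list's sum did not separate the stages (182 to 337), and 6 of its 14 markers were at 0 in at least 1 sample. Of 4 intercalated cell markers tested, Kit was higher at P0 (59.2, 39.0, 5.44, 8.04 and 6.65, -2.84 ± 0.35). Kit passed the filter on low counts only through the P0 samples, so its direction was fixed. The proton pump subunit gene Atp6v1b1 was higher in adult (69.5, 70.5, 125, 102 and 137, 0.76 ± 0.18), though not without P0 sample 1. The sums of the intercalated cell list overlapped (169 to 206). Podocyte markers were higher at P0 in 3 of 5 tested, 2 of them with any sample left out, and in adult in 1, with Synpo at -1.81 ± 0.24 and sums of 197 and 207 at P0 against 98.5 to 150 in adult. Stromal markers summed to 123 and 132 at P0 and 61.3 to 78.9 in adult, and were called in 1 of 4 tested, which lost its call without at least 1 sample. Principal cell markers (276 to 374) and loop of Henle markers (126 to 228) overlapped between stages, and none of 3 immune markers tested was called. The part of such signal in the P0 results was not tested. No doublet caller was run on these nuclei, and fewer open nuclei and shallower nuclei cannot be told apart in a sum.

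Among the 12 genes with the largest differences in each direction, list members included, those higher at P0 held few open calls, and since these genes were chosen for their fold and fitted values near 0 calls depend on the prior count of the fit, their open calls are given with no test. Ccdc8 had 38 and 34 open calls in the P0 sums and 0, 2 and 0 in the adult sums. Rspo1, a Wnt agonist of the ureteric bud list, had 11 and 19 at P0 and 1, 0 and 0 in adult, and Cpxm2 23 and 22 against 1, 1 and 1. Was, Sphkap, Zkscan2, Htr1f and the noncoding 2410018L13Rik, 4632404M16Rik, Gm47360, Gm28523 and Gm12930 were the others. In adult, Perm1, a regulator of mitochondrial genes that acts with PGC-1 and ERR, had 1 and 0 open calls at P0 and 6, 19 and 40 in adult. The sulfotransferase gene Sult1d1 had 2, 4, 10, 31 and 76. Klk1 and its 2 paralogs, Adh6a, Gm11127 and the noncoding Gm45218, Gm37623, Gm44827, Gm49662 and Gm49123 were the rest. Predicted genes that overlap or lie antisense to others share their open calls with them.

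To ask where the stage effect in CNT nuclei differed from that in the neighbouring segments, the difference of stage effects was tested with each sample as a block. Against DCT, 72 of 29552 peaks (0.244%) had a lower and 294 (0.995%) a higher stage effect in CNT, and in gene activity 202 (1.08%) and 230 (1.23%) of 18669 genes. Against PC, 998 (2.95%) and 792 (2.34%) of 33822 peaks and 765 (3.92%) and 568 (2.91%) of 19501 genes differed. All these counts were far lower without the block or with DESeq2, which left 0 and 10 genes against DCT and 32 and 16 against PC.

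Of the 14 connecting tubule markers, 10 had a higher stage effect in CNT than in DCT and 0 a lower one. Of the 13 genes of calcium transport and its hormones these were 8 and 0, and all 8 are among the 10 markers just counted. Over all genes tested the shares were 1.23% higher and 1.08% lower. Adult CNT nuclei ranked first for each defining marker, and the DCT cluster was highest at P0 for most. The direction was thus in part set by the choice of markers. Trpv5 in DCT nuclei had 39.5 and 39.3 CPM at P0, from 15 and 16 open calls. In adult it had 10.8, 12.1 and 12.6, from 4, 11 and 33 open calls, the opposite direction to CNT. The difference of stage effects was 3.22 ± 0.37 (edgeR adjusted p = 6.3e-07). A difference in the makeup of the DCT cluster between the ages and a change within DCT cells cannot be told apart here. Slc8a1 was at 1.74 in CNT and -0.57 in DCT, a difference of 2.06 ± 0.21 (adjusted p = 5.8e-08). These 2 kept the call in all alternatives run. The differences of Calb1 (1.69 ± 0.32), S100g (2.41 ± 0.53), Klk1 (2.37 ± 0.57), Scnn1g (1.43 ± 0.29), Kl (1.07 ± 0.29), Pth1r (0.84), Slc2a9 (0.96) and Vdr (0.68) were lost without the block and without P0 sample 1. Without P0 sample 2 all of these but Scnn1g were lost. DESeq2 lost all but S100g, for which it gave no adjusted p. Slc2a9, Kl, Klk1 and Vdr were also lost without P56 sample 2. The P0 side of DCT rests on 57 nuclei without P0 sample 1 and on 51 without P0 sample 2. Slc12a3 had a higher stage effect in CNT than in DCT (1.72 ± 0.28), with the lower level in CNT in every sample. Egf had a lower one (-1.09 ± 0.26), being called in neither direction in CNT and at 1.33 in DCT. With DESeq2 or without the block no gene had a lower stage effect in CNT, so the Egf call was lost in both.

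Against PC, 7 of the 14 markers had a higher stage effect in CNT, against 2.91% of all genes tested. They were led by Calb1 (2.14 ± 0.31) and Slc8a1 (1.85 ± 0.17, edgeR adjusted p = 7.4e-11). Trpv5 did not pass the test (0.55 ± 0.29, adjusted p = 0.31) and had 1.02 ± 0.24 in PC. The Slc8a1 difference held in all alternatives run. Calb1 and Vdr lost theirs with DESeq2, and Tfap2b, Slc2a9, Kl and Pth1r with DESeq2, without the block and without P0 sample 1. Tfap2b also lost its call without P56 sample 2. Genes of the water channel and vasopressin list went the other way: 4 of 9 had a lower stage effect in CNT and 0 a higher one. Over all genes tested these shares were 3.92% and 2.91%. Aqp3 was higher at P0 in CNT and higher in adult in PC (0.85 ± 0.25), a difference of -1.87 ± 0.32. Aqp4 (-1.98 ± 0.48), Fxyd4, a sodium pump regulator (-2.01 ± 0.47), and Aqp2 (-1.01 ± 0.32) were the others, Aqp2 being higher in adult in both but by 1.96 in PC and 0.92 in CNT. These calls were lost with DESeq2 and each without at least 1 sample. Elf5 was at -1.80 in CNT and 0.46 in PC (difference -2.22 ± 0.20, adjusted p = 7.4e-11). Among distal transcription factors 5 of 28 had a lower stage effect in CNT (Elf5, Emx2, Pax2, Pax8 and Gata2), against 3.92% of all genes tested. A higher one was found for 4 (Esrrb at 1.77 ± 0.21, Sall3, Tfap2b and Emx1), against 2.91%. Gfra1 did not pass the test against PC (-0.04 ± 0.20, adjusted p = 0.94), where it was at -1.87 and thus also higher at P0.

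**Figure D5:**
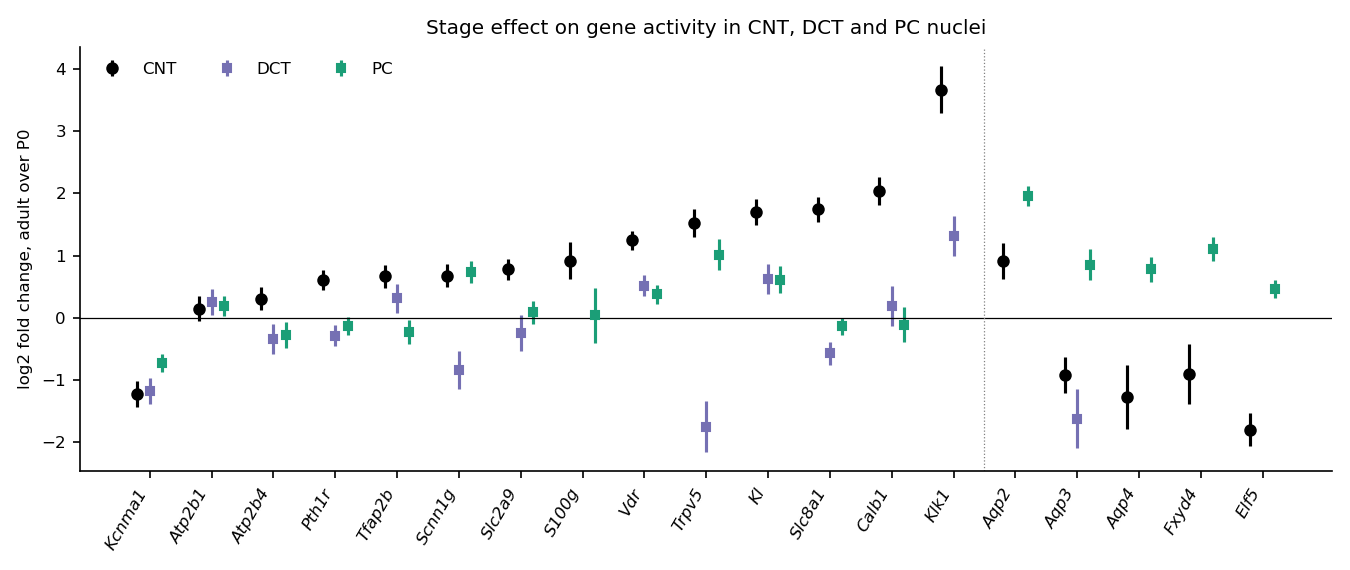
Log2 fold change of gene activity, adult over P0 (y axis), with its standard error for the 14 connecting tubule markers and, right of the dotted line, 5 principal cell genes (x axis), fitted separately in CNT (circles), DCT and PC (squares) nuclei; genes too low to be tested in a cell type have no symbol there. Trpv5 lies at 1.53 in CNT and -1.75 in DCT, and Elf5 at -1.80 in CNT and 0.46 in PC.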

How the data were processed

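Open chromatin was measured by snATAC-seq in whole kidneys of 5 mouse samples. Per the labels, the authors used Cell Ranger ATAC 1.1.0 and MACS2 on mm10. They removed nuclei by fragment number, mitochondrial share and promoter ratio, clustered 5 kb bins with SnapATAC after Harmony integration, and called peaks per cell type on pooled nuclei. The deposited matrix holds, as counts of 0 or 1, whether each of 300755 peaks was open in each nucleus, and the cell names come from the deposited annotation. Cell and fragment depth before this binary coding was not used here.

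The 0 or 1 counts of CNT nuclei were summed per sample. Gene activity summed the peaks that touched a gene or the 2 kb before its start, by the GENCODE M21 annotation, another release than the authors used for theirs. Sums were tested with edgeR 4.0.16 (TMM, filterByExpr with a minimum count of 10 and total of 15, quasi-likelihood test, Benjamini-Hochberg threshold 0.05). Differences of stage effects used CNT with DCT or PC sums and sample as a block. DESeq2 1.42.0 (R 4.3.3), other scalings, no filter, equal nuclei, thinning and leaving out samples were alternatives. Tests were tested on simulated data with 200 changed features, of which 23% at 2-fold and 76% at 4-fold were recovered for peaks between stages, and 58% and 84% for genes. For differences of stage effects these were 9% and 49% (peaks) and 34% and 74% (genes) against DCT. Against PC they were 15% and 64% (peaks) and 52% and 91% (genes), so the counts against DCT and PC are not on equal footing. The simulated counts had 1 dispersion for all features and, beyond depth and the changed features, no differences between samples or cell types. Recovery in the data may therefore differ. Lists were given with counts and medians. Members and lists were chosen with earlier results of these data known. Genes named are list members, the 12 genes and 10 peaks with the largest called fold in each direction without overlap of groups (at least 5 open calls per 100 nuclei, or 5% of nuclei, in the higher group), the 8 largest differences of stage effects in each direction, and start peaks of the marker, calcium, aldosterone and transcription factor lists. Genes singled out as not called were picked within the lists after their values were seen. Intervals are exact binomial at 95% and, like floors of 3 open calls, cover counting error only. No doublet caller was run. Sequences come from the mm10 genome. Some list members are not reported here.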

Additional observations from a re-analysis of the deposited data

Results flagged for a closer look

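The values here were selected because the stage effect in CNT nuclei differed from that in a neighbouring cell type by a test of the difference itself (edgeR's quasi-likelihood test with Benjamini-Hochberg adjustment at 0.05, each sample a block). They are differences of log2 fold changes, adult over P0, and a negative value means that the effect was lower in CNT. No group had 4 samples, so no search for single outlying samples was possible. Against DCT, 72 peaks and 202 genes were lower and 294 peaks and 230 genes higher. The connecting tubule markers among them were Trpv5 (3.22), Calb1 (1.69), Slc2a9 (0.96), Kl (1.07), Klk1 (2.37), Scnn1g (1.43), Pth1r (0.84), Vdr (0.68), Slc8a1 (2.06) and S100g (2.41). Beyond these, the lowest were Gm39078 (-5.01), Gm13052 (-3.67), Igfbp3 (-3.57), Gm16252 (-3.37), Rasgrp3 (-3.31), Acsm1 (-3.30), 2810459M11Rik (-3.25) and Slc13a3 (-3.05). The highest beside Trpv5 were Llcfc1 (4.61), Gm49662 (4.23), Klk1b11 (4.23), Gm1527 (3.79), Gm12866 (3.29), Pdzph1 (3.01) and 2810433D01Rik (2.97).

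Against PC, 998 peaks and 765 genes were lower and 792 peaks and 568 genes higher. The connecting tubule markers among them were Tfap2b (0.93), Calb1 (2.14), Slc2a9 (0.73), Kl (1.16), Pth1r (0.82), Vdr (0.93) and Slc8a1 (1.85). Those of the water channel and vasopressin list were Aqp3 (-1.87), Fxyd4 (-2.01), Aqp2 (-1.01) and Aqp4 (-1.98). Beyond these, the lowest were Grp (-6.27), Krt39 (-5.75), Klrc1 (-5.63), Msln (-5.24), Pabpn1l (-5.20), 1700019C18Rik (-4.91), Gm35189 (-4.43) and Cidec (-4.12). The highest were Klk1b11 (7.64), Perm1 (4.78), Gm15809 (4.54), Gm49636 (3.96), Gm29323 (3.87), Il10 (3.83), Gm48779 (3.52) and Gm4544 (3.43). The adult CNT sums held 0 open calls for Grp, Krt39, Klrc1, Msln and 1700019C18Rik, the adult PC sums held 0 for Klk1b11, and several of the other genes had 0 to 3 open calls at 1 stage, so these fitted values depend on the prior count of the fit and are no bounds. Klk1b11 lies among near-identical kallikrein paralogs, and fragments may be assigned to the wrong copy. Predicted genes (Gm) that overlap others share their open calls. Gm29323 lost its call in all 7 alternatives that tested it, and 2810433D01Rik and 1700019C18Rik in 6 of 7.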

How the results depend on the processing

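Of 2168 values of 179 named genes under the alternatives, 1751 kept direction and side of the threshold, 409 fell below it and 8 turned, and for 38 named peaks these were 325, 55 and 2 of 382. For 52 differences of stage effects, 216 of 371 values kept the call and 155 lost it. Called peaks (P0, adult) were 1549 and 1080 with DESeq2, 1058 and 1238 with equal nuclei, 0 and 6 after thinning to 1000 open peaks, and 4535 at P0 without a filter. Called genes were 1310 and 585 with DESeq2, 207 and 83 after thinning, and 1566 and 958 in the start window. Thinning left 4798 genes to test. Of the named genes among them, 22 kept direction and side of the threshold, 64 fell below it and 5 turned. The differences from DCT (lower, higher) were 0 and 11 peaks and 0 and 10 genes with DESeq2, and 2 and 27 peaks and 0 and 12 genes without the sample block. Those from PC were 8 and 1 peaks and 32 and 16 genes with DESeq2, and 344 and 251 peaks and 162 and 117 genes without it. After thinning, log2 values turned for the start peaks of Vdr (-0.28) and Nr3c2 (-0.11) and for the genes Atp2b4 (-0.20), Atp2b1 (-0.39), Adcy6 (-0.21), Emx1 (-0.054) and Bhlhe40 (-0.019), and in the start window for Klhl3 (-0.15), Pax2 (0.082) and Peg3 (-0.0096). The CNT share differed by -1.60 percentage points within tubule and collecting duct epithelium, podocytes and nephron progenitors left out. Thinning and the start window leave fewer open calls to test, and for the others the cause was not tested. Ratios of motif shares to peaks not called were 1.34 (LEF/TCF), 2.74 (steroid receptor element), 2.34 (ERR) and 1.36 (FOX) over whole peaks. Without peaks over a start, an alternative chosen after seeing the data, they were 1.03 (PAX, turned), 0.98 (AP-2), 2.64 (steroid receptor element), 2.55 (ERR), 1.32 (FOX) and 0.45 (GC box).

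With 1 sample left out, P0-higher peaks ranged from 478 to 4196 and adult-higher ones from 1064 to 3667, genes from 1023 to 4081 and from 498 to 3394. Differences from DCT ranged from 3 to 78 and 9 to 259 peaks, and 19 to 260 and 19 to 261 genes. Those from PC ranged from 122 to 1172 and 117 to 735 peaks, and 263 to 873 and 208 to 497 genes. The share difference ranged from 1.24 to 2.09 points and that of median open peaks from -3714.33 to -1807.33. A stage left with 1 sample is assumed to vary like the others.

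P0 and P56 samples share replicate numbers. A replicate block over those samples gave 3139 and 3264 peaks and 3171 and 2015 genes. Differences between the P0 samples correlated with those between the P56 samples, in the same replicate order, by 0.0982 over peaks and 0.115 over genes. The study's methods give each snATAC-seq sample a batch number of its own, so the replicate numbers name no batch shared between stages. With 2 pairs the correlation does not settle whether they mark a shared day. Same-numbered samples were therefore not used as pairs. Depth limits what can be seen: the P21 sum held 367747 open calls, and batch and stage cannot be told apart.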

Other observations

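The P21 sample did not lie between P0 and P56 in most genes. Of the 1853 genes higher in adult, the lowest of the 3 adult samples was P21 in 575 (31.0%), P56 sample 1 in 1031 (55.6%) and P56 sample 2 in 247 (13.3%). Of the 2861 genes higher at P0, the highest adult sample was P21 in 1199 (41.9%), P56 sample 1 in 1220 (42.6%) and P56 sample 2 in 442 (15.4%). With 1 sample of P21 this order was not tested.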
